A study of Mus musculus with 12 samples.

Results

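The subunits of the mitochondrial respiratory chain and ATP synthase were followed in bulk RNA from mouse brain. They were taken as every gene whose symbol carries a subunit prefix (Nduf followed by a, b, c, s or v and a digit, Sdha to Sdhd, Uqcr, Cox4 to Cox8, Atp5, or the mitochondrial prefixes mt-Nd, mt-Co, mt-Cytb and mt-Atp). This gave 102 of the 21956 genes in the table, 89 encoded in the nucleus and 13 in mitochondrial DNA. By complex, the nuclear genes were 39 for complex I, 4 for complex II, 8 for complex III, 19 for complex IV and 19 for ATP synthase (complex V). The mitochondrial genes were 7 for complex I, 1 for complex III, 3 for complex IV and 2 for complex V. Atp5po stood under 2 gene identifiers, so the 102 genes had 101 symbols. The prefixes also brought in Atp5if1, an inhibitor of ATP synthase rather than a subunit, and Ndufa4, which is now regarded as a subunit of complex IV. Ndufa4 and its paralogue Ndufa4l2 are counted here with complex I, by their symbols. They left out Cyc1, Ndufab1 and Cycs, which are given with the related genes further on.

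The 4 groups held 3 mice each. Sham-Fabp4flox/flox and ICH-Fabp4flox/flox mice carried the floxed Fabp4 allele on both chromosomes, and Sham-Fabp4CKO and ICH-Fabp4CKO mice carried in addition Tmem119-CreERT2, a tamoxifen-inducible Cre recombinase driven by a gene used as a microglial marker. All 4 groups therefore shared the floxed allele, and deletion was directed to microglia only, so Fabp4 in other cells was left in place. Intracerebral hemorrhage (ICH) was produced by collagenase injected into the right striatum, and sham mice had the same surgery without the enzyme. Tamoxifen was given over 7 days, with surgery 14 days later, and tissue was taken at 48 h after ICH from a rim of 1 to 2 mm around the hematoma in 1-mm slices. Whether the mice without Cre also received tamoxifen, and the age and sex of these mice, are not given in the sources used here. The paper describes only its wild-type mice as male. Mice without neurological deficits after collagenase were left out by the authors, so the ICH groups hold mice with deficits only. P-values below measure the spread between these mice.

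The respiratory chain passes electrons from NADH through complex I, and from succinate through complex II, to ubiquinone, complex III, cytochrome c and complex IV, which reduces oxygen. Complexes I, III and IV pump protons across the inner mitochondrial membrane, and complex V lets them back through its c-ring and rotor to make ATP. The mitochondrial DNA encodes a small set of hydrophobic membrane subunits, the nucleus encodes the rest, and complexes I, III, IV and V are built from both, while complex II is nuclear only. Neurons depend heavily on this pathway.

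Of the 102 genes, Ndufb11b, the pseudogene Cox5b-ps, the testis isoform Cox8c and the second Atp5po identifier were at or under 3 counts in every library. Cox7b2 (18 counts over all libraries) and Cox8b (28) were also too low to be tested, and Cox7a1 was tested in 3 of the 5 comparisons. In all, 83 or 82 nuclear genes and all 13 mitochondrial genes were tested, depending on the comparison.

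The libraries held 15650813 to 22406216 counts. Fabp4 had 46, 63 and 24 counts in the ICH-Fabp4flox/flox mice and 5, 3 and 10 in the ICH-Fabp4CKO mice, against 2, 1 and 2 counts in Sham-Fabp4flox/flox and 0 in each Sham-Fabp4CKO mouse, which allows up to 3 counts per library. ICH-Fabp4flox/flox mouse 1 stood apart by its mitochondrial share, the Sham-Fabp4flox/flox mice by choroid plexus genes (Ttr, Kl, Folr1 and Kcne2 summed to 832 to 3107 CPM, that is counts scaled to the TMM-normalized library size, against 11.1 to 25.5 in the other groups), and ICH-Fabp4CKO mouse 1 by having 1 count from 4 Y-linked genes where the other libraries had 1302 to 2251. The brain origin was borne out by neuronal genes, whose 10 markers summed to 5488 to 6764 CPM in Sham-Fabp4flox/flox. Of 10 skeletal muscle markers, Ckm and Tnnc2 were at or under 3 counts in every group and the summed level was 1.69 to 4.76 CPM.

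The few sequences on which the later results turn are shown first. mt-Atp8 and mt-Atp6, the membrane subunits of ATP synthase that the mitochondrial genome encodes, lie on the plus strand of the mitochondrial chromosome at positions 7766 to 7969 and 7927 to 8607 (GRCm38). The genes overlap by 43 bases, so 21.1% of mt-Atp8 is also mt-Atp6 and reads there can be given to either gene. The mt-Atp8 gene is printed with the overlap in capitals.
mt-Atp8: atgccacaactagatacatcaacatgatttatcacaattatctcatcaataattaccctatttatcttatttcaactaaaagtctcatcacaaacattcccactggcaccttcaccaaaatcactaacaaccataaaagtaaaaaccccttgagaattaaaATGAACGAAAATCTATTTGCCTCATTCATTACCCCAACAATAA

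Atp5mc1, Atp5mc2 and Atp5mc3 encode precursors of the same mature c subunit of the ATP synthase ring and differ in the cleaved import peptide. Over the last 228 bases of their coding sequences, which run to the stop codon, 170 positions were identical in all 3 genes. The longest stretch shared without a mismatch over the whole coding sequences was 21 bases for Atp5mc1 and Atp5mc2, 11 for Atp5mc1 and Atp5mc3, and 8 for Atp5mc2 and Atp5mc3, all shorter than a usual sequencing read. The stretches are shown because Atp5mc2 passed the test after ICH and the other 2 genes did not, and capitals mark the positions at which the 3 differ (GENCODE transcripts on GRCm38).
Atp5mc1: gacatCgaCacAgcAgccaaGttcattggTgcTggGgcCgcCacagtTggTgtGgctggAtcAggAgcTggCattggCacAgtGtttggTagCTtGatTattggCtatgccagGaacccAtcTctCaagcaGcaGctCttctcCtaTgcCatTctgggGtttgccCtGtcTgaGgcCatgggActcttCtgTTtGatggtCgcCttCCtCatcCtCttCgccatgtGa
Atp5mc2: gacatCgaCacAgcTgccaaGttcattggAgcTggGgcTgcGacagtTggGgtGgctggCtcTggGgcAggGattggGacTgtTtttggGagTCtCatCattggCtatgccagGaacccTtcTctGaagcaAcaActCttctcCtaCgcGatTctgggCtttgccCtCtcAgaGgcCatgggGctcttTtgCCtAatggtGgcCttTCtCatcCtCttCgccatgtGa
Atp5mc3: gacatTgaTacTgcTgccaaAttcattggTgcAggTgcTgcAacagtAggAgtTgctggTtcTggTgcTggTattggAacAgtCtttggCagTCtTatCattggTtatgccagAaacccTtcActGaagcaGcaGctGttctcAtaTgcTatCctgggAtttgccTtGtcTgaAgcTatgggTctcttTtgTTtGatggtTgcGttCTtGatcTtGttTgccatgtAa

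Respiratory genes are known targets of nuclear respiratory factor 1 (NRF1), of the ETS-family factor GABP and of YY1. RefSeq promoter windows, 250 bases before to 50 after the start on GRCm38.p6, matched 71 of the 89 nuclear genes with 76 windows. The NRF1 letters GCATGCG, on either strand, stood in 14.5% of these windows and in 3.58% of all 32851 windows. The ETS letters CCGGAAG stood in 22.4% against 8.86%, and the YY1 letters ATGGCGG in 17.1% against 4.05%. The core of the hypoxia response element, ACGTG, was found in 26.3% against 19.6%, and TATAAA in 11.8% against 13.6%. Such matches are descriptions of letters in a window, and some windows hold more than 1 of the motifs. Windows of 4 genes that passed the test in at least 1 comparison of ICH with sham are printed with all motif matches in capitals, and matches on both strands that overlap run together. The Atp5mc2 window (chr15:102670998-102671297, minus strand) holds NRF1 and the hypoxia core on its complementary strand, the Uqcrc1 window (chr9:108936398-108936697, plus strand) NRF1, the Ndufb7 window (chr8:83566508-83566807, plus strand) ETS and the TATA letters on its complementary strand, and the Ndufs8 window (chr19:3912725-3913024, minus strand) ETS on its complementary strand.
Atp5mc2: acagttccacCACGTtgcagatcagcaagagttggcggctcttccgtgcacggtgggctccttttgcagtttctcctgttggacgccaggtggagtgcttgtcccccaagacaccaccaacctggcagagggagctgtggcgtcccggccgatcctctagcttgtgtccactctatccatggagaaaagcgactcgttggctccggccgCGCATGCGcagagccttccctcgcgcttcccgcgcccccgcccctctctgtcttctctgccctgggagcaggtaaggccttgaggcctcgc
Uqcrc1: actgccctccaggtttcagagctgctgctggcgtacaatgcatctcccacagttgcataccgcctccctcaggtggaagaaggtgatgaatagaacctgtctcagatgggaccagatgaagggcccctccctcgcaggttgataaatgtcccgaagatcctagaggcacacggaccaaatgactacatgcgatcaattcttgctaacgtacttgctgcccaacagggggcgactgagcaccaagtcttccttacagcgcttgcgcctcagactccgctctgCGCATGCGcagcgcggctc
Ndufb7: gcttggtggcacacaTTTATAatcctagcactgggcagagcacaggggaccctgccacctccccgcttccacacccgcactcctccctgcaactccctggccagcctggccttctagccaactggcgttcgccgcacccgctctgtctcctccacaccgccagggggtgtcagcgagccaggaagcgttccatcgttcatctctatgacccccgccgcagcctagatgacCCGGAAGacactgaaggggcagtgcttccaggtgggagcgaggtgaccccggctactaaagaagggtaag
Ndufs8: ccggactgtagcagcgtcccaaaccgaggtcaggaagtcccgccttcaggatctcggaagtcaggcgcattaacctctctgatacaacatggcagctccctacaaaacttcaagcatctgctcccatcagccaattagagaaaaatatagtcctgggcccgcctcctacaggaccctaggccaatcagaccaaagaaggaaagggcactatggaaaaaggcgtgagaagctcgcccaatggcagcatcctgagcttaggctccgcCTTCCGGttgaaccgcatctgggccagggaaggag

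In the sham brain the mitochondrial transcripts dominated. Counted per kilobase of transcript, the 13 mitochondrial genes had a median of 5338 CPM per kb in Sham-Fabp4flox/flox (534 to 20629), against 73.4 CPM per kb (1.52 to 676) for the 83 nuclear genes. mt-Co1, the catalytic subunit of cytochrome c oxidase, was highest at 20629 ± 2109 (SD, n = 3) CPM per kb, and mt-Nd4l lowest of the mitochondrial genes at 534 ± 39.2. Atp5f1b, the catalytic beta subunit of ATP synthase, was the highest nuclear gene at 676 ± 53.9 CPM per kb. Where the genome holds a ubiquitous and a restricted isoform, the ubiquitous one prevailed in this group: Cox4i1 stood at 436 ± 59.9 CPM per kb and Cox4i2, a hypoxia-related isoform, at 2.00 ± 0.487. Cox6b1 stood at 148 ± 5.55 CPM per kb and its testis isoform Cox6b2 at 2.03 ± 0.87. In the other groups the medians per kb were 67.1 nuclear and 5247 mitochondrial in Sham-Fabp4CKO, 80.3 and 8475 in ICH-Fabp4flox/flox, and 56.6 and 5270.2 in ICH-Fabp4CKO.

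The balance between both genomes differed between ICH and sham mice. Mitochondrially encoded subunits took 9.95%, 9.59% and 8.51% of all counts in the Sham-Fabp4flox/flox mice and 16.3%, 10.4% and 11.9% in the ICH-Fabp4flox/flox mice. In the Fabp4CKO mice the share was 8.39%, 8.83% and 9.003% after sham surgery and 8.37%, 9.50% and 7.90% after ICH, so that these groups overlapped. The nuclear subunits took far less.

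Nuclear subunits held 1.09%, 0.990% and 0.926% of counts in Sham-Fabp4flox/flox and 0.841%, 0.837% and 0.969% in ICH-Fabp4flox/flox, with overlap. They held 0.919%, 0.892% and 0.926% in Sham-Fabp4CKO and 0.705%, 0.818% and 0.568% in ICH-Fabp4CKO, without overlap. The ratio of mitochondrial to nuclear subunit counts was therefore 9.09, 9.68 and 9.20 in Sham-Fabp4flox/flox, 9.13, 9.90 and 9.73 in Sham-Fabp4CKO, 19.4, 12.4 and 12.3 in ICH-Fabp4flox/flox, and 11.9, 11.6 and 13.9 in ICH-Fabp4CKO. All 6 ICH libraries lay above all 6 sham libraries. In Fabp4flox/flox mice the mean log2 ratio was 0.62 higher after ICH than after sham surgery, and 0.41 higher without ICH-Fabp4flox/flox mouse 1. In Fabp4CKO mice it was 0.37 higher. In the first genotype the larger part of the change lay in the mitochondrial counts and in the second in the nuclear counts. No test was made of the ratio, because the genes were chosen with results of these data known.

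**Figure D1:**
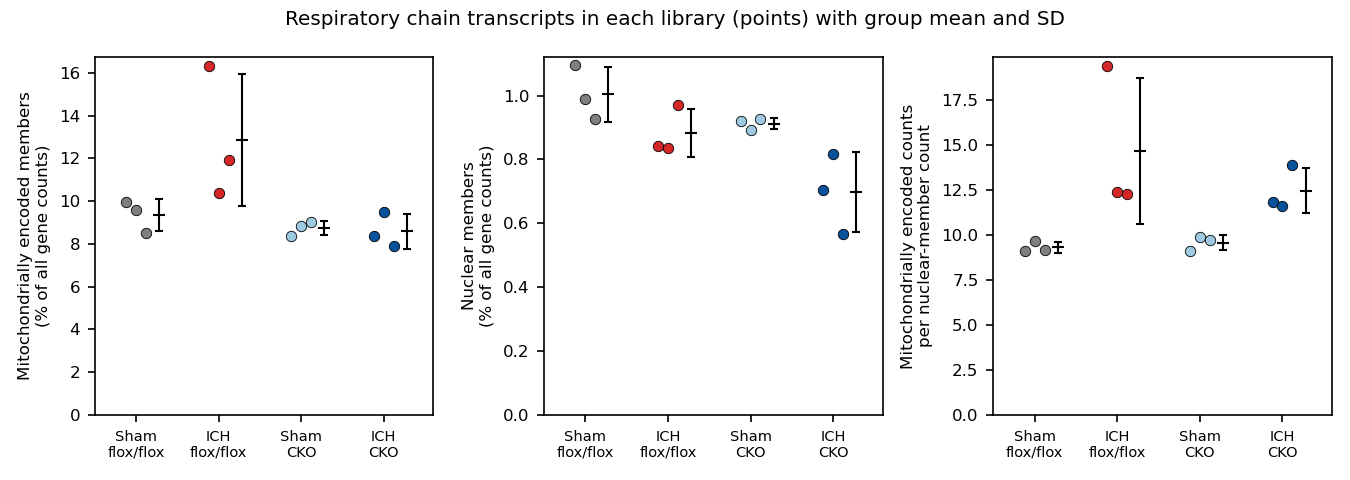
Each point is 1 library: share of all counts (%) from mitochondrially encoded subunits (left), from nuclear subunits (middle), and the ratio of both (right), by group. The ratio lies between 9.09 and 9.90 in the sham libraries and between 11.6 and 19.4 in the ICH libraries, and ICH-Fabp4flox/flox mouse 1 has the highest mitochondrial share at 16.3%.

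These values moved beside changes in cell type markers. The 10 neuron markers summed to 5488 to 6764 CPM in Sham-Fabp4flox/flox and 1792 to 3822 in ICH-Fabp4flox/flox, and to 5917 to 6092 in Sham-Fabp4CKO and 1631 to 4743 in ICH-Fabp4CKO; 9 of 10 fell after ICH by edgeR in the first genotype and 2 of 10 in the second. DESeq2 called all 10 lower in both genotypes, and the median log2 fold changes of the list were -1.20 and -1.15. Of all genes, 19.3% fell by edgeR in Fabp4flox/flox mice and 11.1% in Fabp4CKO mice. Of 9 striatal projection neuron markers, 0 fell by edgeR in Fabp4flox/flox mice and 3 in Fabp4CKO mice. Their sums were 1810 to 5775 CPM in Sham-Fabp4flox/flox and 1367 to 4507 in ICH-Fabp4flox/flox, with overlap. They were 3838 to 6744 CPM in Sham-Fabp4CKO and 1515 to 3547 in ICH-Fabp4CKO. The 6 monocyte and macrophage markers rose from 24.1 to 71.8 CPM in Sham-Fabp4flox/flox to 986 to 2577 after ICH, and from 18.5 to 24.3 CPM to 1234 to 10574 in Fabp4CKO mice. All 6 were higher in both genotypes, against 26.2% and 24.5% of all genes. The 6 oligodendrocyte markers summed to 18429 to 28445 CPM in ICH-Fabp4flox/flox and 7135 to 11456 in ICH-Fabp4CKO, with no overlap between the ICH groups, and the 5 endothelial markers to 460.2 to 973 CPM against 256 to 318. The 4 choroid plexus genes summed to 832 to 3107 CPM in Sham-Fabp4flox/flox and 14.9 to 24.8 in ICH-Fabp4flox/flox. The sham mice that these genes mark are thus also the baseline of the ICH comparison in Fabp4flox/flox mice and enter the interaction. The part of these markers in the respiratory results was not tested. In bulk tissue, fewer cells of a type and less RNA per cell cannot be told apart.

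After ICH in Fabp4flox/flox mice, compared with sham mice of the same genotype, the mitochondrially encoded subunits all had fold changes above 0 without any passing the adjusted threshold. The nuclear subunits split evenly around 0, and 10 of 83 passed: 6 higher (7.23%) and 4 lower (4.82%). Among all 14719 genes tested, 26.2% were higher and 19.3% lower past the adjusted threshold of 0.05 (quasi-likelihood F-test of edgeR, Benjamini-Hochberg), so the nuclear subunits passed less often than genes at large in both directions. Their median log2 fold change was 0.03, against 0.02 over all genes.

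The 13 mitochondrial genes had log2 fold changes from 0.36 to 0.81, with a median of 0.47. Their transcripts are 204 to 1824 bases long. The median over all coding genes of up to 1000 bases was 0.42 in this comparison, and transcript length is taken up below. mt-Co2, which carries the copper site that takes electrons from cytochrome c, was at 7490.2, 7039 and 6030.1 CPM in sham mice and 16827, 9925 and 10377 CPM after ICH. The groups did not overlap, and mouse 1 of the ICH group was far above the other two. The log2 fold change was 0.81 ± 0.30 (SE), with an adjusted p of 0.0602 (edgeR).

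mt-Atp6, which forms the proton path beside the c-ring, was at 6755, 6901 and 6161 CPM in sham mice and 15703, 8899 and 10591 CPM after ICH (log2 fold change 0.79 ± 0.29, adjusted p = 0.0612). mt-Cytb, the heme-bearing core of complex III, was at 8139, 8090.4 and 7126 CPM against 18412, 10305 and 11866 CPM (0.75 ± 0.30, adjusted p = 0.0765). Both genes were apart between the groups. mt-Atp8 was at 160.4, 144 and 152 CPM in sham mice and 375, 174 and 199 CPM after ICH (0.67 ± 0.28, adjusted p = 0.0889).

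mt-Co1, the most abundant transcript of the set, was at 34749.9, 32531 and 28335 CPM in sham mice and 58898, 34618 and 38121 CPM after ICH, with overlap (0.42 ± 0.35, adjusted p = 0.353). For the complex I subunits the log2 fold changes were 0.62 for mt-Nd4, 0.59 for mt-Nd1, 0.47 for mt-Nd6, 0.44 for mt-Nd5, 0.39 for mt-Nd2, 0.36 for mt-Nd3 and 0.36 for mt-Nd4l, and for mt-Co3, a further core subunit of complex IV, 0.39. These ND subunits make up the membrane arm that pumps protons. mt-Nd6 is encoded on the opposite strand from the others, and without strand in the libraries its reads cannot be told apart from reads of the strand opposite it.

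By edgeR, 0 of the 13 mitochondrial genes passed the adjusted threshold and 4 (30.8%) were higher at an unadjusted p under 0.05, against 30.3% of all genes, while DESeq2 called 3 higher (mt-Atp6, mt-Co2 and mt-Cytb). In 6 of 13 the groups did not overlap, all higher after ICH, against 34.4% of all genes. Without ICH-Fabp4flox/flox mouse 1 the median fell to 0.23 and 12 of 13 stayed above 0. Without 1 of the other 5 mice it was 0.44 to 0.66.

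**Figure D2:**
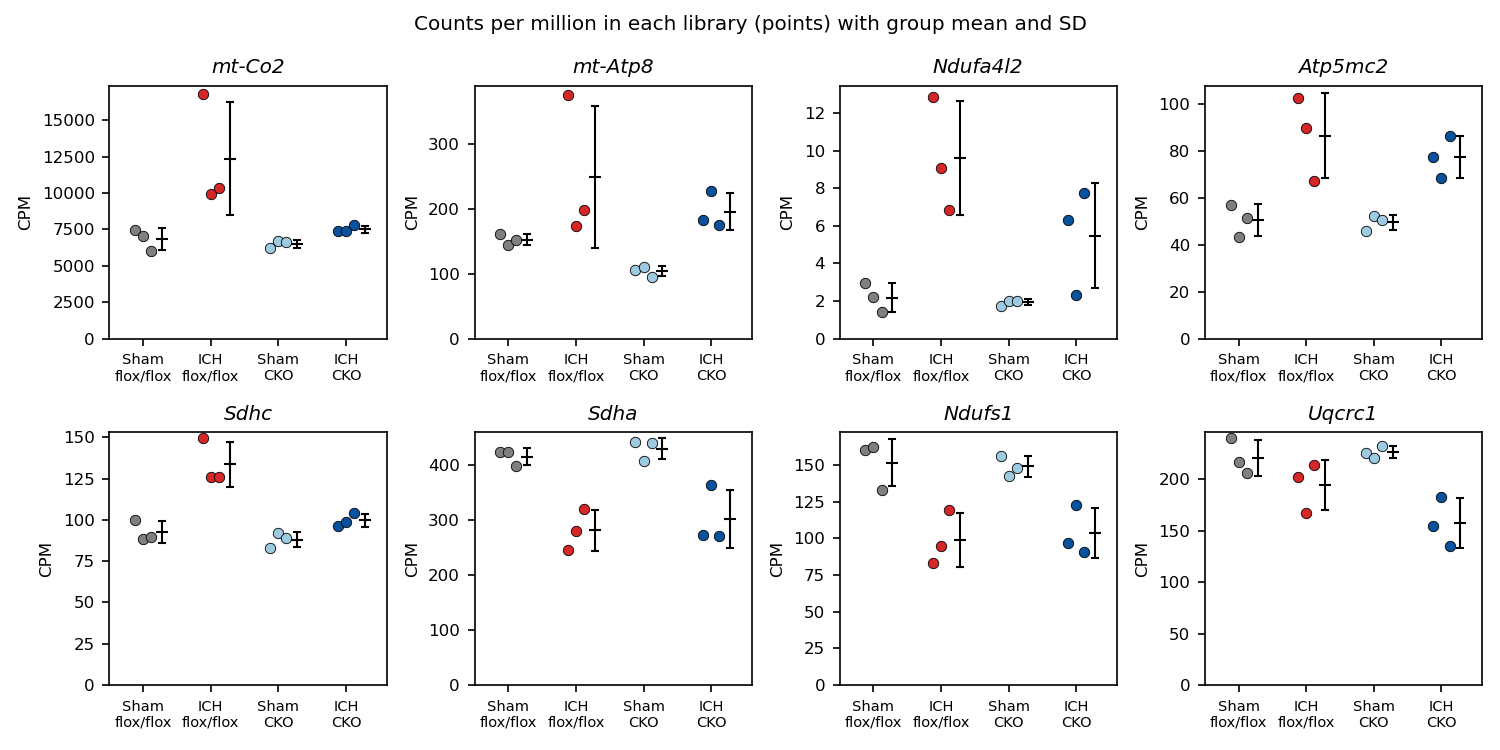
TMM-normalized CPM of 8 subunit genes by group; each point is 1 mouse and bars give the mean and SD (n = 3), each panel on its own linear axis. mt-Co2 and Sdhc are highest in ICH-Fabp4flox/flox, Atp5mc2 and Ndufa4l2 are higher in both ICH groups than in their sham groups, and Sdha and Ndufs1 are lower in both.

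Among the nuclear subunits the highest rise in Fabp4flox/flox mice was that of Ndufa4l2, a paralogue of Ndufa4 known as a target of hypoxia-inducible factors. It was at 2.94, 2.19 and 1.39 CPM in sham mice and 12.9, 9.10 and 6.85 CPM after ICH, without overlap, a 4.26-fold rise (log2 fold change 2.09 ± 0.35, adjusted p = 0.00351, edgeR). Ndufa4 itself was at 154, 139 and 122 CPM in sham mice and 106, 93.9 and 119 CPM after ICH (-0.41 ± 0.17, adjusted p = 0.0749). Per kilobase in sham mice, Ndufa4 stood at 227 ± 25.8 CPM and Ndufa4l2 at 2.33 ± 0.827 CPM.

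In complex I, 3 of 38 genes rose and 2 fell, and the median was -0.05. Besides Ndufa4l2, the accessory subunits Ndufb7 and Ndufa2 rose. Ndufb7 was at 43.4, 36.1 and 37.9 CPM in sham mice and 78.9, 49.5 and 53.2 CPM after ICH (0.59 ± 0.19, adjusted p = 0.0416), and Ndufa2 rose by 0.43 ± 0.14 (adjusted p = 0.0434). Ndufs1, the largest core subunit, which carries iron-sulfur clusters of the electron path, was at 159.8, 162 and 133 CPM in sham mice and 83.3, 94.5 and 119 CPM after ICH, without overlap (-0.65 ± 0.19, adjusted p = 0.0288). The accessory subunit Ndufb2 fell by 0.48 ± 0.14 on the log2 scale (adjusted p = 0.0241). The 7 nuclear core subunits, which hold the flavin and iron-sulfur centers, all had fold changes below 0, with a median of -0.29, and 1 of the 7, Ndufs1, passed. Their transcripts are 983 to 2661 bases long, against a median of 838 over the nuclear subunits tested, so core and long cannot be told apart here.

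Complex II split. Sdhc, a membrane anchor of succinate dehydrogenase, was at 100.03, 88.5 and 89.4 CPM in sham mice and 149.6, 126 and 126 CPM after ICH, a rise of 0.49 ± 0.14 (adjusted p = 0.0245). Sdha, the flavoprotein that oxidizes succinate, was at 423, 423 and 397 CPM in sham mice and 245, 279 and 319 CPM after ICH, a 1.51-fold fall (-0.59 ± 0.17, adjusted p = 0.0283). The ICH mice were all above the sham mice for Sdhc and all below them for Sdha. In complex III, 1 of 8 genes passed: Uqcrc2, a core protein, was at 234, 223 and 211 CPM in sham mice and 157, 162 and 175 CPM after ICH (-0.47 ± 0.15, adjusted p = 0.0327).

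None of the 15 tested nuclear genes with complex IV symbols, which leave out Ndufa4 and Ndufa4l2, passed. By edgeR 0 of them had an unadjusted p under 0.05, while DESeq2 called 1 lower, the isoform Cox6a2. The median was 0.13. Among the tissue isoforms, Cox4i2 was at 1.49, 1.10 and 1.81 CPM in sham mice and 4.57, 2.37 and 1.81 CPM after ICH, with overlap (0.93 ± 0.42, adjusted p = 0.107). Cox6a2, the striated muscle isoform, was at 17.3, 6.95 and 3.46 CPM against 4.29, 1.99 and 5.05 CPM, with sham mouse 1 far above the rest (-1.32 ± 0.61, adjusted p = 0.111). Cox7a1, a second muscle isoform, was below 1.2 CPM in every library (0.75 ± 0.40, adjusted p = 0.158). Cox6b2 had 0.57 ± 0.44 (adjusted p = 0.322). Among the isoforms found in most tissues, Cox6a1 had 0.36 (adjusted p = 0.124), and Cox7a2l, which helps join complexes III and IV into supercomplexes, had 0.26 ± 0.13 (adjusted p = 0.137). Over the whole list of isoform pairs, 1 of 13 tested genes passed, Ndufa4l2.

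In ATP synthase, 2 of 18 genes rose, with a median of -0.00. By edgeR 0 fell, 1 had an unadjusted p under 0.05 and was lower, and DESeq2 called 1 lower (Atp5f1a, the alpha subunit). Atp5mc2 was at 57.0, 43.4 and 51.2 CPM in sham mice and 103, 89.8 and 67.0 CPM after ICH, without overlap (0.73 ± 0.18, adjusted p = 0.0157). The other c-subunit genes, whose sequences are printed above, did not pass: Atp5mc1 was at 116, 109 and 110.1 CPM in sham mice and 101, 101 and 106 CPM after ICH. Atp5mc3 was at 141, 141 and 132 CPM in sham mice and 151, 119 and 146 CPM after ICH. Atp5f1e, the epsilon subunit of the central stalk, was at 21.7, 21.1 and 24.8 CPM in sham mice and 47.5, 27.3 and 31.7 CPM after ICH (0.61 ± 0.21, adjusted p = 0.0493).

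Most of these nuclear calls depended on single mice. The share of all genes called with 1 mouse left out is not given here, so the counts below show stability only. Leaving out 1 mouse in turn left 1 to 6 genes higher and 0 to 10 lower, against 6 and 4 with all mice. The higher calls dropped to 2 without ICH-Fabp4flox/flox mouse 1, ICH-Fabp4flox/flox mouse 2 or Sham-Fabp4flox/flox mouse 1, and to 1 without Sham-Fabp4flox/flox mouse 2 or 3. The lower calls went to 0 without ICH-Fabp4flox/flox mouse 2 or Sham-Fabp4flox/flox mouse 1, to 1 without Sham-Fabp4flox/flox mouse 2, to 2 without ICH-Fabp4flox/flox mouse 1 and to 10 without ICH-Fabp4flox/flox mouse 3.

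**Figure D3:**
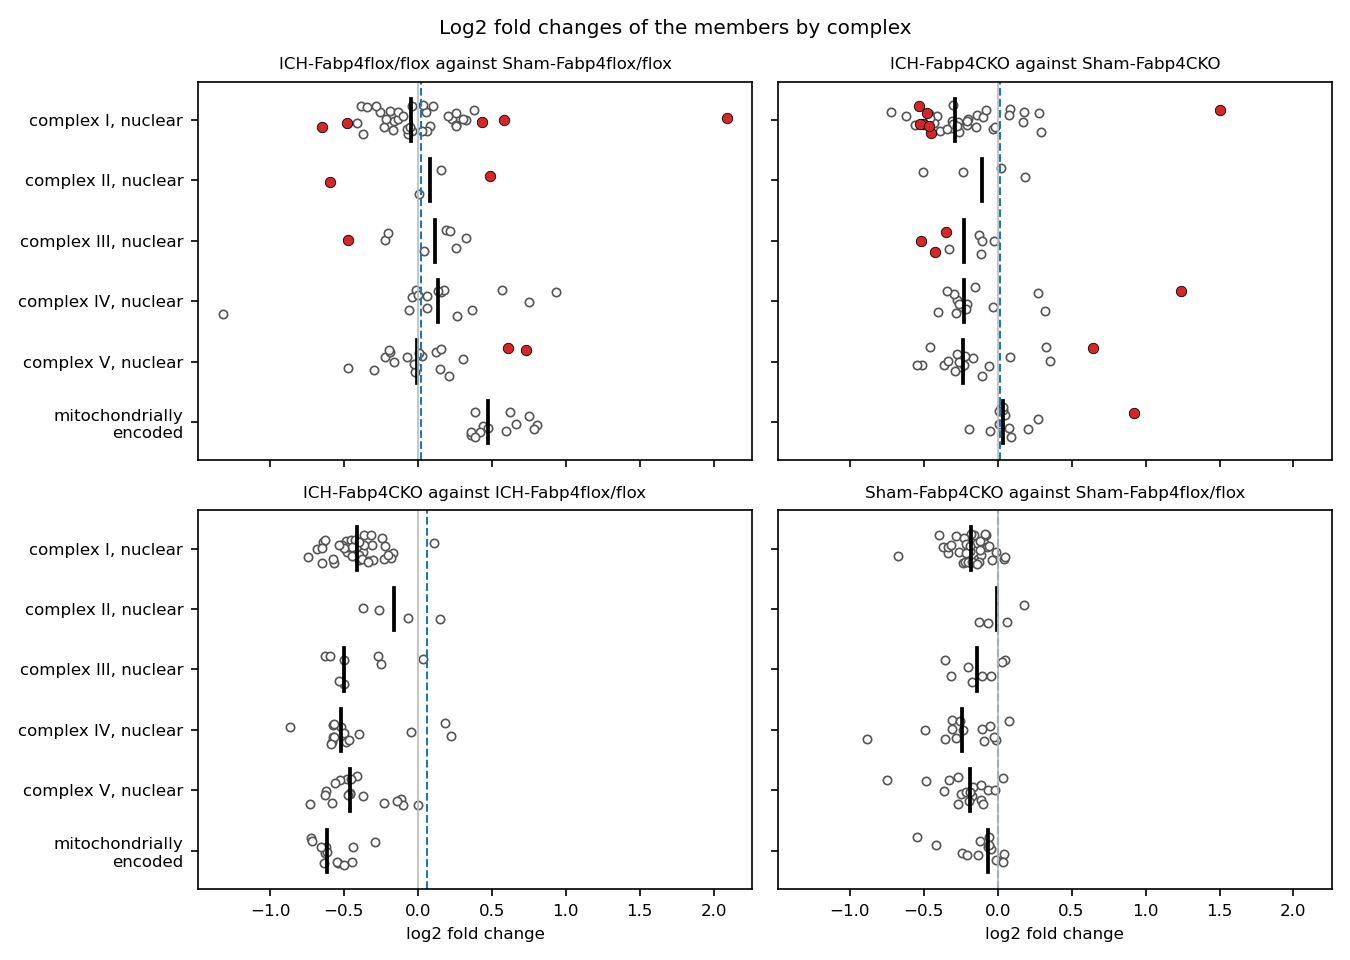
Log2 fold change of every tested subunit in the 4 comparisons between groups, by complex for nuclear genes and together for mitochondrial genes; filled red points passed an adjusted p under 0.05, black bars are medians of each class and the dashed blue line is the median of all genes. All 13 mitochondrial genes lie above 0 in ICH-Fabp4flox/flox against sham and below 0 in ICH-Fabp4CKO against ICH-Fabp4flox/flox.

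In Fabp4CKO mice ICH was followed by lower nuclear subunits and little change in mitochondrial ones. Of 82 nuclear genes tested, 9 fell (11.0%) and 3 rose (3.66%), and 66 had fold changes below 0, with a median of -0.25 against 0.01 over all genes. Among all 14737 genes, 24.5% were higher and 11.1% lower at an adjusted p under 0.05. The share of nuclear subunits that fell was therefore that of the background, and the share that rose was smaller. Of the 13 mitochondrial genes 1 rose, and their median was 0.04.

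The 9 genes that fell belong to complexes I and III. DESeq2 called 28 lower, with members of every complex, but its share over all genes is not given here to set beside this count. In complex I those called by edgeR were the core subunits Ndufs1, Ndufv2 and Ndufs8 and the accessory subunits Ndufb5, Ndufa12 and Ndufb10. Ndufs1 was at 156, 143 and 148 CPM in sham mice and 96.9, 123 and 90.7 CPM after ICH (-0.52 ± 0.15, adjusted p = 0.0402, edgeR), and Ndufv2, an iron-sulfur protein at the NADH-binding end, was at 132, 129 and 132 CPM against 89.0, 106 and 76.9 CPM (-0.53 ± 0.15, adjusted p = 0.0369). Ndufs8, which carries iron-sulfur clusters nearer the ubiquinone site, was at 66.3, 63.5 and 62.0 CPM against 51.1, 46.0 and 41.8 CPM (-0.46 ± 0.12, adjusted p = 0.0302). The ICH mice were below every sham mouse in all 3. Ndufb5 fell by 0.50 ± 0.14, Ndufa12 by 0.48 ± 0.13 and Ndufb10 by 0.45 ± 0.14 on the log2 scale, with adjusted p-values of 0.0364, 0.0392 and 0.0462. All 7 core nuclear subunits had fold changes below 0, with a median of -0.46, and as above these are among the longer transcripts of the set.

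In complex III, 3 of 8 genes fell and all 8 were below 0. Uqcrc1, a core protein, was at 226, 221 and 233 CPM in sham mice and 155, 183 and 135 CPM after ICH (-0.52 ± 0.15, adjusted p = 0.0403). Uqcrfs1, the Rieske iron-sulfur protein that hands electrons on to cytochrome c1, fell by 0.43 ± 0.12 (adjusted p = 0.037), and the small subunit Uqcrq by 0.35 ± 0.11 (adjusted p = 0.0462). In complex II 0 of 4 genes passed by edgeR and 1 had an unadjusted p under 0.05, while DESeq2 called Sdha and Sdhb, the iron-sulfur subunit, lower; Sdha was at 440.4, 406 and 439 CPM against 272, 363 and 269.7 CPM (-0.51 ± 0.17, adjusted p = 0.0563) and Sdhc had 0.18 (adjusted p = 0.199).

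The genes that rose in Fabp4CKO mice were Ndufa4l2, Cox6b2, Atp5mc2 and mt-Atp8. Ndufa4l2 was at 1.76, 2.01 and 2.02 CPM in sham mice and 6.34, 2.34 and 7.76 CPM after ICH, where mouse 2 was close to the sham mice (1.503 ± 0.45, adjusted p = 0.0447). Atp5mc2 was at 46.0, 52.0 and 50.4 CPM against 77.2, 68.3 and 86.4 CPM (0.65 ± 0.13, adjusted p = 0.0167), while Atp5mc1 was at 101, 99.0 and 95.8 CPM against 76.2, 91.0 and 62.5 CPM. Cox6b2 was at 0.924, 0.761 and 0.827 CPM against 2.52, 2.02 and 1.42 CPM (1.24 ± 0.31, adjusted p = 0.0299).

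mt-Atp8 was at 105, 110.2 and 95.1 CPM in sham mice and 183, 228 and 175 CPM after ICH, a 1.89-fold rise without overlap (0.92 ± 0.15, adjusted p = 0.00964). mt-Atp6, with which it overlaps and is transcribed, was at 5519, 6002 and 5469.9 CPM against 7081, 6977 and 6474 CPM (0.28, adjusted p = 0.299). mt-Co2 was at 6205, 6699 and 6661 CPM against 7396, 7362 and 7808 CPM (0.21 ± 0.21, adjusted p = 0.432), and mt-Cytb had 0.08. The sham level of mt-Atp8 enters this rise: at 103 ± 7.69 CPM (SD, n = 3) in Sham-Fabp4CKO it was below the 152 ± 8.09 of Sham-Fabp4flox/flox.

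These counts moved with single mice more than those of the other genotype. The fits with 1 mouse left out again have no share of all genes beside them. Without ICH-Fabp4CKO mouse 2, the mouse with the highest nuclear share after ICH, 37 nuclear genes were lower. Without ICH-Fabp4CKO mouse 3 it was 1, and without ICH-Fabp4CKO mouse 1 or any 1 Sham-Fabp4CKO mouse it was 0. The higher nuclear calls also dropped to 0 in the last 4 cases, and the mt-Atp8 call was lost without any 1 Sham-Fabp4CKO mouse. ICH-Fabp4CKO mouse 1 is also the library with 1 count from Y-linked genes, so it may differ in sex, and the part of sex in these calls was not tested. With the replicate number as a block, 1 nuclear gene was higher, 0 nuclear genes were lower, and mt-Atp8 still passed.

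Atp5mc2 and Ndufa4l2 passed as higher in both genotypes (2 of 6 and 2 of 4 calls), and Ndufs1 as lower (1 of 4 and 1 of 9). Whether the effect of ICH differed between genotypes was tested by the interaction over all 12 mice. By edgeR 0 of 83 nuclear and 0 of 13 mitochondrial genes passed, against 0.0199% of all genes (3 of 15089), and DESeq2 called 1, Atp5mf, a subunit of the membrane part of ATP synthase. At an unadjusted p under 0.05, 9 nuclear genes were lower in this term (10.8%) and 1 higher, against 4.37% lower among all genes, and no mitochondrial gene was lower. Among coding genes of up to 1000 bases 9.02% were lower. The interaction was below 0 for 74 of 83 nuclear genes, with a median of -0.28, and for 12 of 13 mitochondrial genes, with a median of -0.46. Over all genes the median was 0.03. Leaving out 1 mouse in turn gave 4 to 19 lower nuclear genes, with medians from -0.36 to -0.19 and the highest counts without ICH-Fabp4CKO mouse 2 (19), ICH-Fabp4flox/flox mouse 2 (17) or Sham-Fabp4flox/flox mouse 1 (15). No share of all genes is given for these fits.

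Directly compared after ICH, the subunits were lower in Fabp4CKO than in Fabp4flox/flox mice as a set of values, without a gene passing the adjusted threshold. Of all 14600 genes 0.0% passed in edgeR. DESeq2 called 7 nuclear subunits lower (Atp5f1d, Atp5mf, Cox6a1, Cox7b, Ndufa12, Ndufc1 and Uqcrq), a count given without the DESeq2 share over all genes. At an unadjusted p under 0.05, 40 of 83 nuclear subunits (48.2%) and 1 of 13 mitochondrial ones (7.69%) were lower and none higher, against 5.82% lower among all genes. Among coding genes of up to 1000 bases 18.0% were lower, and transcript length is taken up below. In 57 nuclear and 9 mitochondrial genes every Fabp4CKO mouse lay below every Fabp4flox/flox mouse, against 11.5% of all genes. The medians were -0.45 and -0.62, against 0.06 over all genes. This comparison shares its mice with the 2 comparisons of ICH with sham, so that its values are not a separate observation.

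By complex, 16 of 38 nuclear genes of complex I, 1 of 4 of complex II, 5 of 8 of complex III, 9 of 15 of complex IV and 9 of 18 of complex V were lower at an unadjusted p under 0.05. Of all genes 5.82% were lower, and of coding genes of up to 1000 bases 18.0%. Ndufc1, a small accessory subunit of complex I, was at 19.0, 18.6 and 18.4 CPM in ICH-Fabp4flox/flox and 12.3, 11.3 and 10.7 CPM in ICH-Fabp4CKO (-0.65 ± 0.16, adjusted p = 0.305). Atp5mf was at 107, 91.1 and 99.9 CPM against 64.8, 67.1 and 59.6 CPM (-0.58 ± 0.15, adjusted p = 0.313). Cox6a1 was at 266, 224 and 233 CPM against 164, 171 and 135 CPM. These groups were well apart, with both of them tight.

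Between the ICH groups Sdha had a log2 fold change of 0.15 ± 0.22, Ndufs1 of 0.11 ± 0.22 and Atp5mc2 of -0.10 ± 0.19. The count at an unadjusted p under 0.05, given without the share of all genes in the same fits, depended on the mice. It was 9 without ICH-Fabp4CKO mouse 3, 10 without ICH-Fabp4flox/flox mouse 1, 12 without ICH-Fabp4CKO mouse 1 and 17 without ICH-Fabp4flox/flox mouse 3. Without ICH-Fabp4CKO mouse 2 or ICH-Fabp4flox/flox mouse 2 it was 46 and 38. The median stayed below 0 each time.

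Between Sham-Fabp4CKO and Sham-Fabp4flox/flox 22 of 82 nuclear subunits (26.8%) and 4 of 13 mitochondrial ones (30.8%) were lower at an unadjusted p under 0.05 and none higher, against 6.07% lower among all genes. Among coding genes of up to 1000 bases 13.96% were lower. By edgeR 0 subunits passed the adjusted threshold, against 0.111% of all 14395 genes (16). DESeq2 called 4, Atp5me, Ndufc2, Uqcrh and mt-Atp8, a count given without the DESeq2 share over all genes. The nuclear median was -0.18, with 74 of 82 below 0, and the mitochondrial median was -0.06. Without Sham-Fabp4flox/flox mouse 3, a fit whose share over all genes is not given here, 19 subunits passed by edgeR, and the nuclear count at an unadjusted p under 0.05 was 37. It was 10 without Sham-Fabp4flox/flox mouse 1 and 14 without Sham-Fabp4CKO mouse 2 or 3, with medians from -0.22 to -0.10.

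Ndufc2, an accessory subunit of complex I, was at 102, 95.7 and 93.2 CPM in Sham-Fabp4flox/flox and 57.5, 56.0 and 67.1 CPM in Sham-Fabp4CKO (-0.67 ± 0.10, adjusted p = 0.0995, edgeR). Atp5me, a small membrane subunit of ATP synthase, was at 13.1, 11.3 and 11.6 CPM against 6.84, 7.25 and 7.12 CPM (-0.75 ± 0.12, adjusted p = 0.127). Uqcrh, the hinge protein of complex III, was at 103, 94.8 and 96.2 CPM against 78.1, 75.7 and 74.6 CPM (-0.36 ± 0.08, adjusted p = 0.272). In these 3 genes and in mt-Atp8 (-0.54 ± 0.09, adjusted p = 0.128) the groups did not overlap. The choroid plexus genes that marked the Sham-Fabp4flox/flox mice moved beside this comparison, and their part in it was not tested.

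Subunit genes are short, and fold changes followed transcript length throughout the table. The transcript taken for each gene, its annotated principal one where there is one, had over the 83 nuclear subunits tested a median of 838 bases (371 to 4715, 51 of them up to 1000), against 3052 bases for all 14997 coding genes tested. After ICH in Fabp4flox/flox mice, Spearman's rho between log2 fold change and transcript length was -0.24 over other coding genes and -0.55 over 82 nuclear subunits. In Fabp4CKO mice it was -0.12 and -0.50. Between the ICH groups it ran the other way, at 0.33 and 0.51. The points of each rho are genes that share the same libraries, and no test was made.

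Set beside coding genes of up to 1000 bases, the nuclear subunits of that length were lower in each comparison. The medians were 0.42 for all such genes and 0.08 for subunits after ICH in Fabp4flox/flox mice, and 0.15 and -0.20 in Fabp4CKO mice. Between the ICH groups they were -0.30 and -0.49, and 33 of 50 short subunits (66.0%) had an unadjusted p under 0.05 and were lower, against 138 of 767 genes (18.0%). Between the sham groups this was 18 of 49 (36.7%) against 103 of 738 (13.96%). Cytosolic ribosomal proteins, with a median transcript of 869 bases, had a median fold change of 0.97 (log2) after ICH in Fabp4flox/flox mice and 0.89 in Fabp4CKO mice, far above the subunits of like length.

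When the trend with transcript length was removed before the test, an alternative chosen after seeing the data, the nuclear medians after ICH were lower in both genotypes. The median became -0.39 in Fabp4flox/flox mice, where 38 of them were lower and 2 higher (Ndufa4l2 and Sdhc), with 3 of the 4 earlier lower calls kept. Of all genes, 20.8% were lower and 25.4% higher in that fit. It became -0.40 in Fabp4CKO mice, where 26 were lower, including all 9 from before, and 2 higher (Atp5mc2 and Cox6b2), against 13.1% lower and 24.3% higher among all genes. Between the ICH groups the nuclear median became -0.13 and the mitochondrial one -0.27. The nuclear genes lower at an unadjusted p under 0.05 went from 40 to 5 of 83, against 5.69% of all genes in that fit. Between the sham groups these went from 22 to 10 of 82, against 6.09%. In the interaction they went from 9 to 1 of 83, against 3.17%, and the nuclear median there became 0.00. Where the trend with length came from was not tested.

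**Figure D4:**
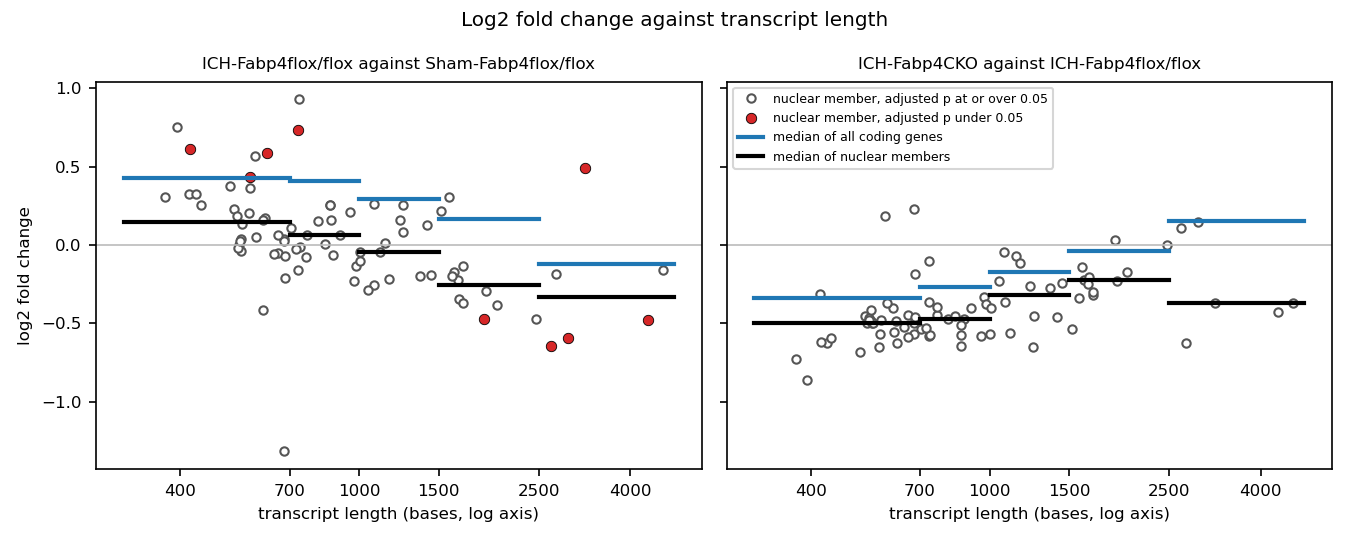
Log2 fold change against transcript length (bases, log axis) for nuclear subunits in ICH-Fabp4flox/flox against sham (left) and ICH-Fabp4CKO against ICH-Fabp4flox/flox (right); blue and black bars are medians of all coding genes and of the nuclear subunits in each length class, with the outermost classes open-ended, and Ndufa4l2 is left out of the plot. The trend falls with length on the left (rho -0.24 over other genes, -0.55 over subunits) and rises on the right (0.33 and 0.51).

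Other genes of the pathway were read from lists. For comparison, 26.2% of all genes rose and 19.3% fell after ICH in Fabp4flox/flox mice by edgeR. In Fabp4CKO mice these shares were 24.5% and 11.1%. The subunits and electron carriers that the prefixes missed were lower after ICH in both genotypes by value: of 4 tested, 0 passed in Fabp4flox/flox mice by edgeR (1 at an unadjusted p under 0.05, and 1 in DESeq2, lower), and 3 fell in Fabp4CKO mice, namely Ndufab1, the acyl carrier protein of complex I (-0.62, adjusted p = 0.0178, edgeR), Cyc1, cytochrome c1 (-0.58, adjusted p = 0.0436), and Cycs, cytochrome c (-0.50, adjusted p = 0.0419). Of 15 complex I assembly factors, 1 rose and 2 fell in each genotype. Ndufaf5, which modifies Ndufs7, fell by 0.62 (adjusted p = 0.0385) and 0.91 (adjusted p = 0.0124). Of 10 assembly factors of complexes II and III, 1 rose and 4 fell in Fabp4flox/flox mice and 2 fell in Fabp4CKO mice. Ttc19, needed for complex III, had -1.13 (adjusted p = 0.0118) and -0.95 (adjusted p = 0.0452). Of 20 complex IV assembly factors, 0 passed in either genotype by edgeR, 3 had an unadjusted p under 0.05 in each, and DESeq2 called 2 in each. Of 4 complex V assembly factors 0 passed, 1 had an unadjusted p under 0.05 in each genotype and DESeq2 called 1 lower in each.

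Of 24 genes that maintain and express mitochondrial DNA, 2 rose and 2 fell in Fabp4flox/flox mice and 1 rose and 1 fell in Fabp4CKO mice. In Fabp4flox/flox mice this was 8.33% each way, against 26.2% higher and 19.3% lower among all genes. In Fabp4CKO mice it was 4.17% each way, against 24.5% and 11.1%. Lrpprc, which stabilizes mitochondrial messenger RNAs, fell by 0.79 ± 0.15 (adjusted p = 0.00525, edgeR) and 0.39 (adjusted p = 0.0388). Pnpt1, a mitochondrial polynucleotide phosphorylase that degrades RNA, rose by 0.87 (adjusted p = 0.00758) and 0.84 (adjusted p = 0.0137). Of 14 transcription regulators of respiratory genes, 2 rose and 1 fell in Fabp4flox/flox mice and 3 rose and 1 fell in Fabp4CKO mice: the GABP subunits Gabpa (0.58 and 0.86) and Gabpb2 (0.81 and 1.12) were higher in both and the coactivator Ppargc1b (-1.72 and -1.18) lower in both. Of 17 import and carrier genes, 1 rose and 1 fell by edgeR in Fabp4flox/flox mice and 1 fell in Fabp4CKO mice, while DESeq2 called 1 higher and 3 lower in Fabp4flox/flox mice and 0 higher and 7 lower in Fabp4CKO mice.

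Of 12 hypoxia response genes, 5 rose by edgeR in Fabp4flox/flox mice, with a median of 0.48, and 6 in Fabp4CKO mice, with a median of 0.87. DESeq2 called 6 higher and 0 lower in Fabp4flox/flox mice, and 7 higher and 1 lower in Fabp4CKO mice. They included Adm, adrenomedullin (3.15 and 3.22), Egln3, an oxygen sensor (2.66 and 3.18), and Slc2a1, the glucose transporter of the blood-brain barrier (1.73 and 0.78). Ndufa4l2 moved in the same direction as these genes. Cox4i2, the other subunit with known induction by low oxygen, did not pass in either genotype. Pericyte and smooth muscle markers also rose, 8 of 9 by edgeR in Fabp4flox/flox mice and 5 of 9 in Fabp4CKO mice. Of all genes 26.2% and 24.5% rose. The marker sums were 210 to 286 CPM in Sham-Fabp4flox/flox and 606 to 1138 in ICH-Fabp4flox/flox. In Sham-Fabp4CKO and ICH-Fabp4CKO they were 205 to 217 and 323 to 563 CPM. Which of these lists Ndufa4l2 followed was not tested.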

How the data were processed

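The authors deposited estimated counts per gene, not normalized, for bulk poly(A) RNA libraries of 12 mice. The submitters' notes name Bowtie2 2.2.8, HISAT2, StringTie 1.3.1 and DESeq2; the counting tool and the genome build are not given in the sources used here, and the kit is not stated to mark strand. An estimator can share reads between similar genes, so paralogues and overlapping genes are uncertain. Annotation, lengths and coding sequences came from GENCODE on GRCm38, and 21804 of 21956 genes had a length.

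The counts were rounded and tested with edgeR 4.0.16 in R 4.3.3 (TMM, filterByExpr at 10 counts, and 15 in total, quasi-likelihood F-test, two-sided, Benjamini-Hochberg over all genes tested, threshold 0.05) on the groups compared, or on all 12 libraries for the interaction. CPM are TMM-normalized, and fold changes are log2. Shares of all genes are given for the main edgeR fit and the fit with the length trend removed only. Depth was 15650813 to 22406216 counts, and limits from 3 counts cover counting error only. Only the edgeR comparison between groups was run on simulated counts first. DESeq2, the interaction and the other alternatives were not.

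Members, lists and tests were chosen with earlier results of these data known. Genes named were all mitochondrial members, up to 2 called genes in each direction per nuclear complex in ICH-Fabp4flox/flox against sham, the tissue isoforms, any member called in a genotype comparison or the interaction, and up to 3 genes of smallest p per list. Others, such as Ndufa2, the calls in Fabp4CKO mice and the genes of the genotype comparisons, were named after seeing their values. The authors' annotation columns (GO, KEGG) were not used. Alternatives were DESeq2 1.42.0, relative log expression (RLE) scaling, total counts without TMM, no filter, library sizes without mitochondrial genes, 1 fit of all libraries, the replicate number as a block, each library left out, and, added after seeing the data, removal of the length trend (lowess, span 0.3).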

Additional observations from a re-analysis of the deposited data

How the results depend on the processing

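The ratio of mitochondrial to nuclear counts stayed higher after ICH in both genotypes in every setting tried: the log2 difference ran from 0.41 to 0.73 in Fabp4flox/flox and from 0.29 to 0.42 in Fabp4CKO mice as single libraries were left out. The counts of called genes were far less stable, and the small number of mice per group limits them. Apart from the fit with the length trend removed, these settings have no share of all genes beside them. Their counts therefore show stability only. In Fabp4flox/flox mice after ICH, the 6 higher nuclear genes became 3 with library sizes that leave out mitochondrial genes, 3 without a filter, 2 with the length trend removed, and 1 to 6 with 1 library left out. The 4 lower ones became 8 in DESeq2, 38 with the length trend removed and 0 to 10 with 1 library left out (0 without ICH mouse 2 or sham mouse 1, 1 without sham mouse 2, 2 without ICH mouse 1, 10 without ICH mouse 3). The 0 mitochondrial calls became 3 in DESeq2, 6 in the fit of all 12 libraries and 0 to 2 with 1 library left out (2 without ICH mouse 3). In Fabp4CKO mice after ICH, the 3 higher nuclear genes ranged from 0 to 4 with 1 library left out, and the 9 lower ones became 28 in DESeq2, 15 with RLE scaling, 17 in the fit of all libraries, 26 with the length trend removed and 0 to 37 with 1 library left out. The 1 mitochondrial call became 2 in DESeq2 and 0 to 1 with 1 library left out. Between the ICH groups the 0 calls became 7 in DESeq2 and 5 in the fit of all libraries, between the sham groups 4 in DESeq2 and 0 to 19 with 1 library left out (19 without Sham-Fabp4flox/flox mouse 3), and in the interaction 1 in DESeq2. With the length trend removed, single genes turned in Fabp4flox/flox mice: Ndufa2 to -0.0833, Cox7a2 to -0.43 and Atp5f1e to -0.000603. The cause of these changes was not tested.

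Whether the replicate numbers pair the mice cannot be settled from 3 mice per group. Between ICH and sham, correlations of same-numbered deviations were 0.20, 0.02 and 0.13 in Fabp4flox/flox and about 0 in Fabp4CKO mice. Between the ICH groups they were 0.31, -0.17 and -0.58, and between the sham groups 0.06, -0.18 and -0.09. With the number as a block, the nuclear calls in Fabp4flox/flox mice stayed at 6 higher and 4 lower. The nuclear calls in Fabp4CKO mice went to 1 higher and 0 lower, mt-Atp8 still passed, and no other count of calls changed, while the nuclear genes lower between the ICH groups at an unadjusted p under 0.05 went from 40 to 10.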

Other observations

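The mitochondrial ribosome, which translates the mitochondrially encoded subunits and whose own proteins are all nuclear, was read from its 78 tested protein genes. After ICH in Fabp4flox/flox mice 9 were higher and 2 lower by edgeR, against 26.2% and 19.3% of all genes, with a median log2 fold change of 0.14, and their summed level was 1982 to 2171 CPM in sham and 2141 to 2531 CPM in ICH mice. In Fabp4CKO mice 3 were higher and 6 lower by edgeR, against 24.5% and 11.1% of all genes, with a median of -0.06, and the sums were 1981 to 2011 CPM after sham surgery and 1834 to 1931 CPM after ICH. DESeq2 called 8 higher and 3 lower in Fabp4flox/flox mice, and 6 higher and 13 lower in Fabp4CKO mice. The proteins of the cytosolic ribosome rose far more often, with 75 of 79 higher in Fabp4flox/flox and 73 of 79 in Fabp4CKO mice by edgeR and none lower. Their summed level was 11402 to 13563 CPM in Sham-Fabp4flox/flox and 19577 to 33097 CPM in ICH-Fabp4flox/flox.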
